A study of Mus musculus with 4 samples.

Results

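The mouse Hox genes were described in kidney RNA, gene by gene and cluster by cluster. A gene was a member if its name on the array was Hoxa, Hoxb, Hoxc or Hoxd followed by its paralog number, and 39 of the 37072 gene entries on the array met this rule. They were covered by 52 probes, and 29 of them had 1 probe. Of the 39 genes, 31 passed the detection filter, a signal well above background on 1 array or more, as did 24638 entries in all. The rule itself uses names and no measured value. The kidneys came from ICR mice, an outbred strain, and were taken 1 day after an injection of vancomycin, a glycopeptide antibiotic known to harm the kidney at high exposure, or of saline. The 4 groups were vancomycin injected at zeitgeber time (ZT) 14, saline at ZT14, vancomycin at ZT2 and saline at ZT2, where zeitgeber time counts hours from lights on. Each group had 1 single-colour array, so no group had a replicate, and the labels give neither the age or sex of the mice nor the number of mice behind a sample. The ZT14 arrays shared 1 slide and the ZT2 arrays another, and on each slide treatment went with the position of the array. Injection time therefore cannot be told apart from slide, or treatment from position. Collection came 1 day after injection at both times, so the hour of collection may go with injection time as well.

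Hox genes encode homeodomain transcription factors that give cells their position along the head to tail axis. They lie in clusters on separate chromosomes, and their order along a cluster, from the 3′ to the 5′ end, follows the order along the body in which they are switched on, so that low paralog numbers mark the hindbrain and neck and high ones the tail end. Adult tissues keep part of this pattern, and the mouse kidney, which arises from intermediate mesoderm in the posterior trunk, depends on the paralogs of groups 10 and 11 while it forms. In whole kidney RNA, fewer cells of a type and less RNA per cell cannot be told apart.

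Per array, 60.6% to 64.7% of 59305 spots were well above background, and 0 were saturated. Kidney markers were present: all 20 genes of a list of mature nephron and collecting duct markers were well above background on all 4 arrays, and 0 of them differed 2-fold between vancomycin and saline at either time. Markers of other tissues were also present. Of 12 adrenal markers 10 were above background on both vancomycin arrays and 6 on both saline arrays, and their summed signal was 155.1% of the 75th percentile of the array with vancomycin and 95.5% with saline at ZT14, and 670.5% with vancomycin and 85.0% with saline at ZT2. Differences between arrays are in log2 units, where 1 is a doubling, after each array was centred on its 75th percentile.

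Detection of Hox genes in these kidneys ended near the posterior end of the clusters. On all 4 arrays 29 of the 39 genes were well above background, against 56% of all gene entries, and 8 were so on no array, against 33.5% of all entries. The 27 genes of paralog groups 2 to 10 were all detected on all 4 arrays, whichever cluster they lay in. The 6 genes of groups 12 and 13 were detected on none: Hoxc12, Hoxd12, Hoxa13, Hoxb13, Hoxc13 and Hoxd13, which are known for patterning the distal limb, the genital tract, the end of the gut, the hair and the nails. Group 11 lay between them, with Hoxa11 above background on 4 arrays, Hoxc11 on 3 and Hoxd11 on 2. At the head end, Hoxb1 and Hoxd1, hindbrain and neural genes in the embryo, were detected on none.

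**Figure D1:**
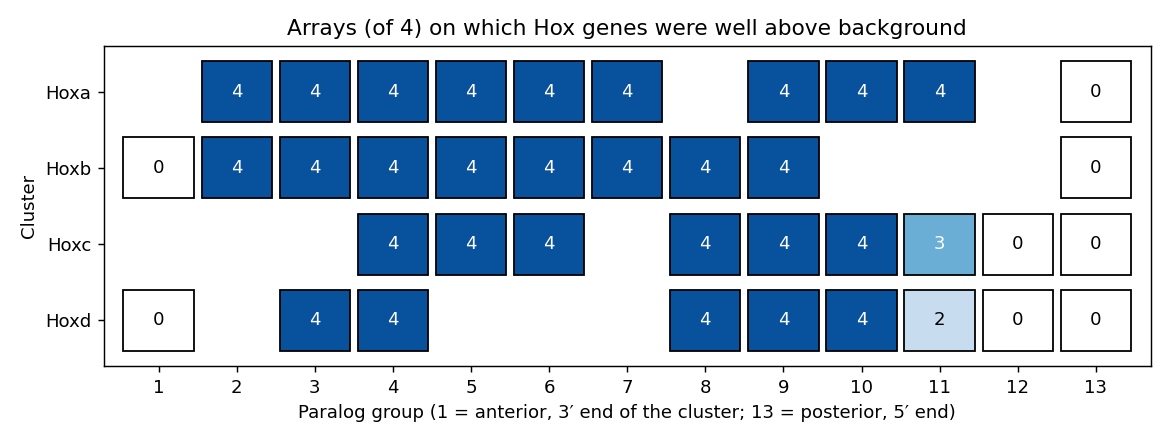
The map places 38 Hox genes by cluster (rows) and paralog group (columns) and gives the number of arrays, of 4, on which its brightest probe was well above background. Paralog groups 2 to 10 hold a 4 in every box, groups 12 and 13 hold a 0 in every box, and group 11 holds 4, 3 and 2.

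By cluster, 10 of 11 Hoxa genes on chromosome 6 were detected on all 4 arrays, 8 of 10 Hoxb genes on chromosome 11, 6 of 9 Hoxc genes on chromosome 15 and 5 of 9 Hoxd genes on chromosome 2. By position, all 15 genes of groups 4 to 8 were, and 8 of 16 of groups 9 to 13. The 4 samples had nearly equal counts: 30 Hox genes were above background in vancomycin ZT14, 31 in saline ZT14, 30 in vancomycin ZT2 and 30 in saline ZT2. A probe that is not above background gives only a limit for its own sensitivity, and each gene has its own probe, so detection rather than level was compared between genes. The 8 undetected genes had signals of 0.345% to 1.38% of the 75th percentile of their array.

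The upstream DNA of genes on either side of this boundary is shown because Hox promoters differ in their content of CG pairs, the sites of DNA methylation in mammals. These are the 200 bases before the annotated start, 5′ to 3′ on the strand of the gene, from RefSeq's GRCm38.p6 annotation, with every CG in capitals: Hoxa11 at chr6:52245811-52246010 on the minus strand, Hoxa13 at chr6:52260881-52261080 on the minus strand and Hoxd13 at chr2:74668025-74668224 on the plus strand.
Hoxa11: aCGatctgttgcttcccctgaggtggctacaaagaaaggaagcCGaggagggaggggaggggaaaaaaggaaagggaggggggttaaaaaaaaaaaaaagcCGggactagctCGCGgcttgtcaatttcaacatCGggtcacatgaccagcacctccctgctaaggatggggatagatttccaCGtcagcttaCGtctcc
Hoxa13: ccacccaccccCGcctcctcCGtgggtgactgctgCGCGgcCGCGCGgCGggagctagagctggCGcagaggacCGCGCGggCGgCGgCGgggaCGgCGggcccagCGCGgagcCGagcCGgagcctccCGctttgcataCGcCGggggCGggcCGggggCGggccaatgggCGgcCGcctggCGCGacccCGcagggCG
Hoxd13: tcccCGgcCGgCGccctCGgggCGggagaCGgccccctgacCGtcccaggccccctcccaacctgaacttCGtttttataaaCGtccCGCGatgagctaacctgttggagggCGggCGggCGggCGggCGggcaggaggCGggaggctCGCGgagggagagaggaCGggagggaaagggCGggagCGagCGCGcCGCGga
Hoxa11, detected on all 4 arrays, has 8 CG pairs here, and 39.4% of 32851 mouse promoters in the same table have as many or more. Hoxa13 and Hoxd13, detected on none, have 33 and 26, which 1.40% and 5.31% of promoters reach. The table held 24 promoters of 22 Hox genes, and the median was 21 CG pairs (range 5 to 33) in 5 promoters of 5 undetected genes and 8 (range 2 to 22) in 19 promoters of 17 detected genes, against 5 over all promoters. Hoxa13 and Hoxd13 have the most CG pairs of all these Hox promoters. Next to the boundary, undetected Hoxd12 has 9, and the 2 promoters of detected Hoxd11 have 2 and 18. The undetected genes also include Hoxb1 (5) and Hoxd1 (21) of the head end, and detected Hoxa5 and Hoxa6 have 22 each. The ranges thus overlap. CG was read on both strands at once because it is its own complement, and methylation was not measured in these samples.

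The signals of the members follow from the head end to the tail end, each as a percentage of the 75th percentile of the processed signal on its own array, so that values of 1 gene can be compared across arrays and values of different genes cannot. Hoxa2, which sets the identity of the second branchial arch in the embryo, stood at 7.26% with vancomycin and 6.43% with saline at ZT14, and at 4.97% with vancomycin and 4.71% with saline at ZT2. Hoxb2, a hindbrain gene, stood at 129% with vancomycin and 112% with saline at ZT14, and at 147% with vancomycin and 139% with saline at ZT2. Both paralogs were higher with vancomycin at both times, by 0.08 to 0.21 log2 units. Hoxa3, needed for the thymus and parathyroid, gave 61.2% with vancomycin and 66.0% with saline at ZT14, and 89.8% with vancomycin and 72.9% with saline at ZT2. Hoxb3 gave 25.6% with vancomycin and 23.7% with saline at ZT14, and 16.4% with vancomycin and 17.6% with saline at ZT2. Hoxd3, which patterns the first neck vertebrae, gave 24.5% with vancomycin and 23.4% with saline at ZT14, and 39.8% with vancomycin and 28.3% with saline at ZT2. Among the genes of groups 2 and 3 the vancomycin difference was between -0.11 and 0.21 at ZT14 and between -0.10 and 0.49 at ZT2.

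Groups 4 to 8 pattern the neck and thorax. Hoxa4 measured 7.20% with vancomycin and 6.68% with saline at ZT14, and 10.8% with vancomycin and 9.38% with saline at ZT2. Hoxb4, known for expanding blood stem cells, measured 210.1% with vancomycin and 168% with saline at ZT14, and 267% with vancomycin and 188% with saline at ZT2. It was higher with vancomycin at both times. Hoxc4 measured 23.0% with vancomycin and 31.1% with saline at ZT14, and 31.7% with vancomycin and 35.3% with saline at ZT2. Hoxd4 measured 63.6% with vancomycin and 98.6% with saline at ZT14, and 88.2% with vancomycin and 57.7% with saline at ZT2. Its direction was opposite at the 2 times, with differences of -0.63 at ZT14 and 0.61 at ZT2. Hoxa5, required for lung development, measured 19.3% with vancomycin and 22.9% with saline at ZT14, and 35.7% with vancomycin and 22.7% with saline at ZT2. Hoxb5 measured 49.7% with vancomycin and 47.4% with saline at ZT14, and 54.0% with vancomycin and 44.8% with saline at ZT2. Hoxc5 measured 6.02% with vancomycin and 4.89% with saline at ZT14, and 6.44% with vancomycin and 3.41% with saline at ZT2. All 3 genes of group 5 were higher with vancomycin at ZT2, by 0.27 to 0.91.

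The 3 genes of group 6, which act in the thoracic skeleton and spinal cord, were higher with vancomycin at both times. Hoxa6 gave 16.6% with vancomycin and 10.8% with saline at ZT14, and 14.8% with vancomycin and 11.97% with saline at ZT2. Hoxb6 gave 383% with vancomycin and 283% with saline at ZT14, and 447% with vancomycin and 347% with saline at ZT2. Hoxc6 gave 165% with vancomycin and 128% with saline at ZT14, and 209.9% with vancomycin and 138% with saline at ZT2. Their differences were 0.37 to 0.61 at ZT14 and 0.31 to 0.61 at ZT2, each below 2-fold. These are from the brightest probes, and a dimmer probe of Hoxc6 gave 0.02 at ZT14 and 0.48 at ZT2. Hoxb7, whose promoter is widely used to drive transgenes in the mouse ureteric bud and collecting duct, stood at 861% with vancomycin and 584% with saline at ZT14, and at 609% with vancomycin and 598% with saline at ZT2. Hoxa7 stood at 1319% with vancomycin and 1512% with saline at ZT14, and at 1167.5% with vancomycin and 1161% with saline at ZT2. Hoxb7 was highest with vancomycin at ZT14, and Hoxa7 was highest with saline at ZT14. Hoxb8, which acts in spinal and blood-derived cells, had 27.2% with vancomycin and 29.4% with saline at ZT14, and 16.1% with vancomycin and 14.7% with saline at ZT2. Hoxc8, a gene of thoracic and motor neuron patterning, had 19.4% with vancomycin and 23.6% with saline at ZT14, and 23.6% with vancomycin and 21.4% with saline at ZT2. Hoxd8 had 1568% with vancomycin and 1519% with saline at ZT14, and 1469% with vancomycin and 1231% with saline at ZT2. For Hoxb8 both ZT14 arrays were above both ZT2 arrays, and for Hoxc8 they were not.

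Groups 9 and 10 act in the lumbar and sacral trunk and the limb, and group 10 also in the stroma of the developing mouse kidney. Hoxa9, known for its part in blood cell precursors and leukaemia, measured 155% with vancomycin and 145% with saline at ZT14, and 121% with vancomycin and 137% with saline at ZT2. Hoxb9 measured 50.8% with vancomycin and 38.6% with saline at ZT14, and 78.7% with vancomycin and 104% with saline at ZT2. Both ZT14 values of Hoxb9 were below both ZT2 values. Hoxc9 measured 100.3% with vancomycin and 108% with saline at ZT14, and 139% with vancomycin and 102% with saline at ZT2. Hoxd9 measured 109% with vancomycin and 102% with saline at ZT14, and 146% with vancomycin and 160.2% with saline at ZT2. Hoxd9 was likewise lower on both ZT14 arrays than on both ZT2 arrays. Hoxa10, which is also needed in the uterus, stood at 652% with vancomycin and 651% with saline at ZT14, and at 865% with vancomycin and 841% with saline at ZT2. Hoxc10 stood at 61.9% with vancomycin and 77.6% with saline at ZT14, and at 84.1% with vancomycin and 68.9% with saline at ZT2. Hoxd10 stood at 42.6% with vancomycin and 33.9% with saline at ZT14, and at 43.7% with vancomycin and 31.6% with saline at ZT2. Hoxa10 differed by 0.00 at ZT14 and 0.04 at ZT2 between vancomycin and saline, and Hoxd10 was higher with vancomycin at both times (0.33 and 0.47).

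**Figure D2:**
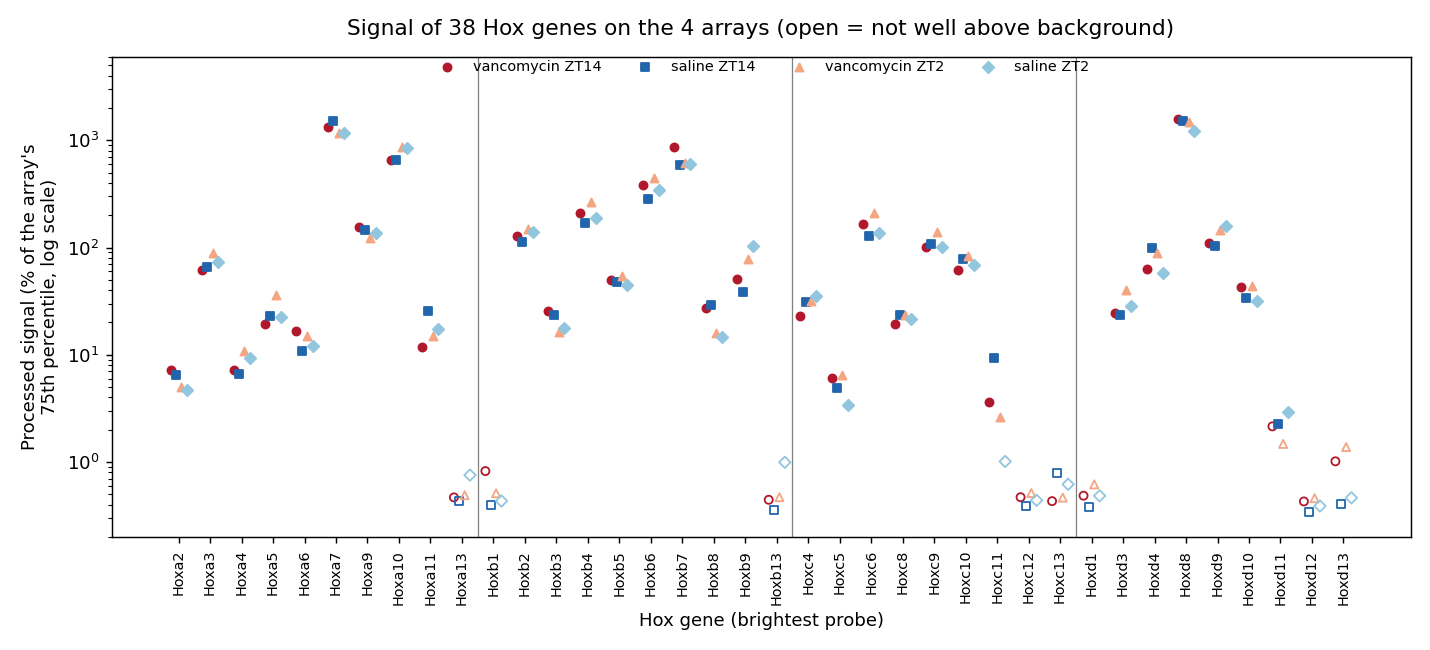
Each point is the processed signal of the brightest probe of 1 of 38 Hox genes on 1 array, in percent of the 75th percentile of that array on a log axis, with genes in cluster order and open symbols for signals not well above background. The 8 undetected genes lie at or below 1.38%, and Hoxa11 and Hoxc11 show their highest point in saline ZT14.

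Group 11 is the group most closely tied to the kidney: in mouse embryos its genes act with Eya1 to switch on Six2 and Gdnf in the metanephric mesenchyme, and mice that lack all of them form no kidneys. The probes of its 3 genes are shown because the differences below rest on a single probe each. Each line is a stretch of 30 of the 60 bases of the probe, 5′ to 3′ as in the array files, with the longest run of letters shared with a probe of another Hox gene in capitals. The probe of Hoxa11 lies at chr6:52192107-52192166 on the minus strand, that of Hoxc11 at chr15:102787015-102787074 on the plus strand and that of Hoxd11 at chr2:74522028-74522087 on the plus strand (mm9, as the array files give them).
Hoxa11: gggatggtgttCAAAAGACtgtaaataaag
Hoxc11: gaccgacaaGTGAAAATTTGgtttcagaac
Hoxd11: gagaaaagactccaactctctCGGATGCTc
The capitals are 8 bases shared with a Hoxa9 probe, 11 bases shared with a Hoxb4 probe and 8 bases shared with the Hoxc11 probe. Over all Hox probes the longest run shared between different genes was 12 of 60 bases, with a median of 9. Only probes were compared with each other, so whether a probe also matches the transcripts of other Hox genes was not tested.

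Hoxa11 had a signal of 11.7% with vancomycin and 25.7% with saline at ZT14, and of 14.9% with vancomycin and 17.2% with saline at ZT2. Hoxc11 had 3.61% with vancomycin and 9.28% with saline at ZT14, and 2.65% with vancomycin and 1.01% with saline at ZT2, the last not well above background. Hoxd11 had 2.15% with vancomycin, which was not well above background, and 2.28% with saline at ZT14, and 1.48% with vancomycin, again not above background, and 2.95% with saline at ZT2. For Hoxa11 and Hoxc11 the saline ZT14 array was the highest of the 4. At ZT14 Hoxa11 was lower with vancomycin by -1.13 and Hoxc11 by -1.36 log2 units. The error model of the image software gives SEs of 0.22 and 0.28 for these differences, which cover measurement on the array and not the spread between mice. At ZT2 Hoxa11 differed by -0.21, and Hoxc11 was higher with vancomycin by at least 0.47, a bound that puts the dim saline signal at the detection floor of its array. Hoxd11 was dim with vancomycin at both times. At ZT14 its vancomycin signal lay just above the floor of its array, so -0.09 is the plain difference (error-model SE 0.44). At ZT2 the vancomycin signal was under the floor, and -0.39 is a bound. Neither value reaches 2-fold. These are differences between single arrays with no test, and other ways of treating background brought both Hoxa11 and Hoxc11 inside 2-fold: -0.74 and -0.50 with normexp background correction, and -0.99 and -0.94 with a pseudocount of 16.

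The series asks how the kidney responds to vancomycin given at either time. At ZT14, 0 of the 31 measured Hox genes were higher by 2-fold or more, against 1.6% of all genes, and 2 were lower, Hoxa11 and Hoxc11, against 2.85% of all genes. At ZT2, 0 were higher, against 1.96% of all genes, and 0 were lower, against 3.86%. With 31 genes, counts this small were not read as a difference from these shares. The median Hox difference was 0.07 at ZT14, with 19 genes above 0 and 12 below, and 0.20 at ZT2, with 24 above and 7 below, whereas the medians over all genes were 0.01 and 0.00. In absolute size the median was 0.21 at ZT14 and 0.27 at ZT2 for Hox genes and 0.20 and 0.23 for all genes. At both times 15 Hox genes were higher with vancomycin and 3 lower (Hoxa11, Hoxc4 and Hoxd11, the last from signals near background), and 13 changed direction. The same counts over all 24638 genes were 7084, 6924 and 10630.

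Cluster medians were not in 1 direction. At ZT14 the median difference was 0.05 for Hoxa, 0.27 for Hoxb, -0.28 for Hoxc and 0.06 for Hoxd, and at ZT2 it was 0.12 for Hoxa, 0.11 for Hoxb, 0.45 for Hoxc and 0.36 for Hoxd. Of the 8 measured Hoxb genes 7 were above 0 at ZT14, and of the 7 Hoxc genes 5 were below 0 at ZT14 and 6 above 0 at ZT2. By position, the medians were 0.07 at ZT14 and 0.27 at ZT2 for groups 4 to 8, and -0.04 at ZT14 and -0.05 at ZT2 for groups 9 to 13. At ZT2, 14 of the 15 genes of groups 4 to 8 were above 0, Hoxc4 being the exception at -0.16. These medians have no test, and they are smaller than 2-fold throughout.

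With treatment and injection time fitted together over all genes (limma), 0 of 31 Hox genes differed between vancomycin and saline at an adjusted p under 0.05, against 0% of all 24638 genes. At an unadjusted p under 0.05 limma gave 0 of 31 Hox genes and 2107 of 24638 genes in all. This fit has 1 residual degree of freedom and a prior worth 1.86 more, so its p-values measure how far the differences at the 2 times disagree and not the spread between mice. The smallest adjusted p among Hox genes was 0.59, for Hoxc6, with a fitted difference of 0.49 ± 0.15 (SE, 2 arrays per treatment) and higher signals with vancomycin at both times. Hoxb6 followed with 0.40 ± 0.14 (limma adjusted p 0.61) and Hoxb4 with 0.42 ± 0.15 (limma adjusted p 0.62). The value of Hoxc6 depends on its probe, since its dimmer probe gave 0.02 at ZT14 and 0.48 at ZT2. With the mean over probes the fitted difference of Hoxc6 was 0.37 (limma adjusted p 0.68).

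Between injection times the Hox genes differed in both directions, and these comparisons also compare the slides. With vancomycin, 0 of 31 were higher at ZT14 by 2-fold or more, against 9.42% of all genes, and 0 were lower, against 3.26%. Hoxd11 could not be called here, since neither vancomycin array was above background, and the shares over all genes leave out such genes. With saline, Hoxb8 (1.00) and Hoxc11 (at least 2.28) were higher at ZT14, against 8.37% of all genes higher, and Hoxb9 (-1.43) was lower, against 3.46% lower. Hoxb8 sits on the 2-fold line, and it was at 0.96 after quantile normalization and 0.61 with normexp, while Hoxb9 kept its call under every alternative tried (-1.27 to -1.54). Hoxc11 was at 0.70 with normexp. The Hox median of ZT14 minus ZT2 was -0.22 with vancomycin, with 11 genes above 0 and 20 below, and 0.08 with saline, with 17 above and 14 below, against 0.05 and 0.06 over all genes. Centring the arrays on the median in place of the 75th percentile shifted the medians over all genes to -0.06 with vancomycin and -0.05 with saline, so only differences from these medians are read. The Hox medians became -0.34 with vancomycin and -0.03 with saline under that centring.

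In the limma fit of both treatments 0 of 31 Hox genes differed between ZT14 and ZT2 at an adjusted p under 0.05, against 0% of all genes. At an unadjusted p under 0.05 limma gave 6 of 31 Hox genes, Hoxa2, Hoxa4, Hoxb3, Hoxb8, Hoxb9 and Hoxd9. This is a smaller share than the 6710 of 24638 genes in all. Hoxb8 had the smallest adjusted p, 0.11, with a difference of 0.88 ± 0.15 (SE, limma, 2 arrays per time) and higher signals at ZT14 with both treatments. Hoxa4 (-0.54 ± 0.14) and Hoxb9 (-1.03 ± 0.27) both had an adjusted p of 0.16 in limma and lower signals at ZT14 with both treatments. In all, 8 Hox genes were higher at ZT14 with both treatments, 11 were lower with both and 12 differed in direction between treatments. Over all 24638 genes the same counts were 10032, 8166 and 6440, and these signs, taken against 0, move with the centring.

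**Figure D3:**
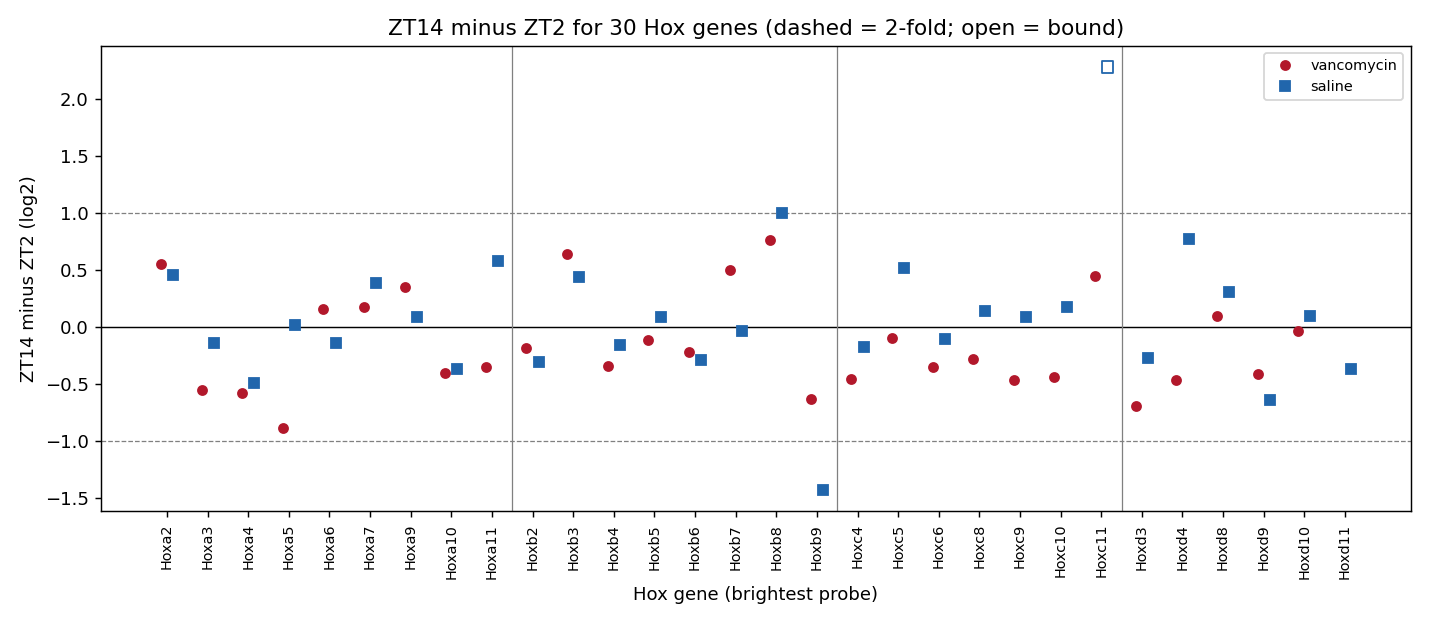
Points are ZT14 minus ZT2 in log2 units for 30 measured Hox genes with vancomycin (circles) and saline (squares), with an open symbol for a bound and dashed lines at 2-fold. Hoxb9 (-1.43, saline) and Hoxc11 (at least 2.28, saline) lie past the lines, Hoxb8 (1.00, saline) lies on the upper one, and no circle lies past either. Hoxd11 has no circle, since neither vancomycin array was above background.

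In all, 10 members had more than 1 probe, which shows how far a value depends on the probe. Among 10 dimmer probes detected on all 4 arrays, the gap to the brightest probe of the same gene had a median of 0.25 at ZT14 and 0.19 at ZT2 for vancomycin minus saline. The largest gap was 1.67, for Hoxb2 at ZT14. For ZT14 minus ZT2 the median gap was larger, 0.64 with vancomycin and 0.52 with saline. The brightest and the dimmer probe of Hoxb2 are shown because the array files place them on opposite strands, the brightest at chr11:96215122-96215181 on the plus strand, which is the strand of the gene, and the dimmer at chr11:96211860-96211919 on the minus strand (mm9). Stretches of 30 of their 60 bases follow, with capitals for runs shared with probes of Hoxb1 and of Hoxb9.
Hoxb2 brightest: ggtaaaactcCTTCCAACGaaatctcagga
Hoxb2 dimmer: tgggctcaattttagaataTTGTGATTTac
The dimmer probe gave 8.16% with vancomycin and 2.22% with saline at ZT14, and 6.97% with vancomycin and 5.89% with saline at ZT2, which is 1.88 log2 units higher with vancomycin at ZT14, against 0.21 for the brightest probe. Whether it reads Hoxb2 or a transcript of the other strand was not tested. For Hoxb9 the dimmer probe gave 16.1% with vancomycin and 6.57% with saline at ZT14, a difference of 1.29 against 0.40 for the brightest. Both Hoxb9 probes lie on the strand of the gene and were higher with vancomycin at ZT14, but at ZT2 they differed in direction, -0.41 for the brightest and 0.13 for the dimmer. Hoxa11, Hoxc11 and Hoxd11 have 1 probe each, so their values have no such check.

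**Figure D4:**
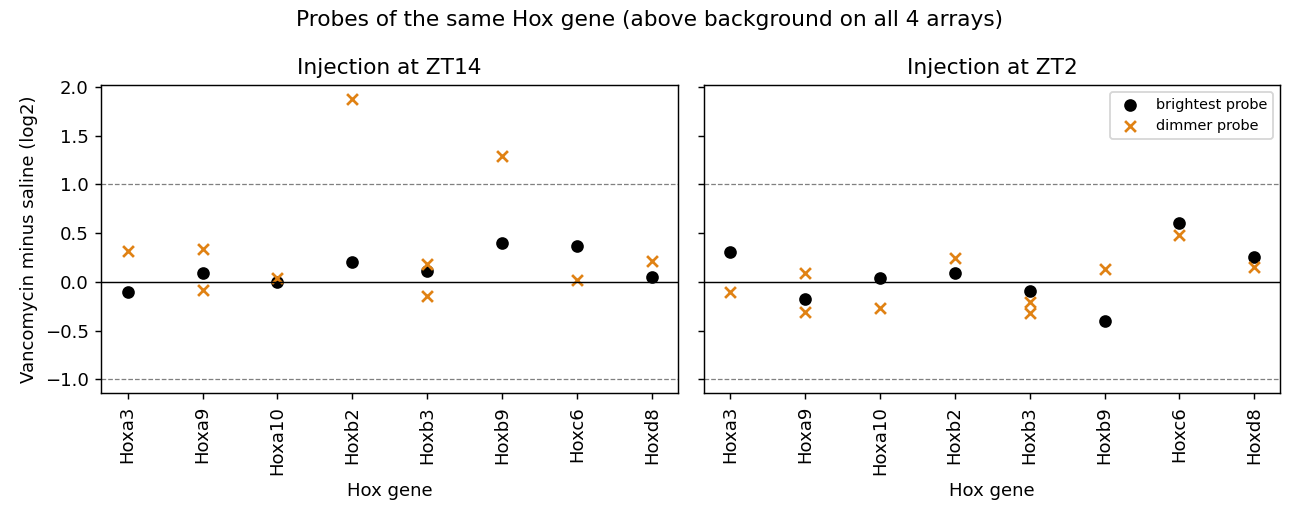
Vancomycin minus saline in log2 units is plotted for the brightest probe (dots) and the dimmer probes (crosses) of 8 Hox genes whose probes were above background on all 4 arrays, at ZT14 on the left and ZT2 on the right, with dashed lines at 2-fold. The crosses of Hoxb2 (1.88) and Hoxb9 (1.29) at ZT14 lie past 2-fold while their dots do not.

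Genes that work with Hox proteins or control them were mostly detected. Of 10 TALE homeodomain cofactors, which bind DNA together with Hox proteins, 9 were detected on all 4 arrays and 0 differed 2-fold with vancomycin at either time. All 23 Polycomb and trithorax genes, which hold Hox genes silent or active, were detected on all 4 arrays and 0 differed 2-fold, with median differences of 0.10 at ZT14 and 0.08 at ZT2. Of 9 other regulators and partners, 7 were detected on all 4 arrays and 0 differed 2-fold. Of the 6 Cdx and ParaHox genes, upstream of Hox genes or related to them, only Gsx2 was detected on all 4 arrays, with dim signals of 2.99% to 5.86%. Cdx4 was above background on the saline arrays alone and was lower with vancomycin at ZT2 with a bound of -1.29, so by that much or more.

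The genes around group 11 in kidney formation were partly present. Of 24 kidney developmental genes 20 were measured, 19 of them on all 4 arrays, and 0 differed 2-fold with vancomycin. Eya1, the partner of the group 11 proteins, had 3848% with vancomycin and 4070.2% with saline at ZT14, and 6244% with vancomycin and 5135% with saline at ZT2. Six2 and Gdnf, switched on by group 11 in the embryo, and Ret, the receptor of Gdnf, were above background on no array, and so was Tbx18. Wt1, a podocyte gene in the adult, had 55.3% with vancomycin and 44.6% with saline at ZT14, and 43.6% with vancomycin and 54.1% with saline at ZT2. Of 8 homeobox genes of the head and forebrain, which lie in front of the Hox domain, 4 were measured, 3 of them on all 4 arrays. The summed signal of the measured genes was 201% to 234% per array. Otx1, Six3 and Dlx5 were among those detected on none. Hesx1 was higher with vancomycin at ZT14 (2.67) and Otx2 lower at ZT2 (-1.52).

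Several markers of other cell types differed 2-fold. Adrenal markers were higher with vancomycin by 2-fold or more in 6 of 10 measured genes at ZT14, against 1.6% of all genes. At ZT2 6 were higher, against 1.96%, and 5 were higher at both times. Chga (at least 2.44 at ZT14 and at least 5.61 at ZT2), Cyp11b1 (at least 1.91 and at least 4.77) and Cyp21a1 (1.39 and 5.39) were among these, whereas Cyp11b2 and Mc2r were on no array. Cyp11a1, Cyp11b1, Chga and Dbh passed the detection filter through the vancomycin arrays alone, so the filter fixed their direction. Of the genes detected on all 4 arrays, Cyp21a1 and Hsd3b1 (1.05 and 2.94) passed 2-fold at both times and Star at ZT2 (2.68). Nr5a1 (0.00 at ZT14 and 0.31 at ZT2), Th (-0.06 and 0.78) and Pnmt (0.26 and 0.54) were detected on all 4 arrays and passed 2-fold at neither time. Stromal and smooth muscle markers, 8 of 8 detected on all arrays, summed to 3567% with vancomycin and 4737% with saline at ZT14, and to 2925% with vancomycin and 7351% with saline at ZT2, where 4 of 8 were lower by 2-fold or more. Urothelium markers summed to 1759% with vancomycin and 1308% with saline at ZT14, and to 1429% with vancomycin and 1628% with saline at ZT2, with Upk3b (1.44), Krt5 (1.33) and Upk1a (1.21) higher at ZT14 and Krt5 (-1.39) lower at ZT2. Adipose markers summed to 1069.7% with vancomycin and 915% with saline at ZT14, and to 2044% with vancomycin and 4276% with saline at ZT2, where 2 of 9 were higher and 5 lower. Of 7 liver markers 1 was lower at ZT14, and 1 was higher and 1 lower at ZT2. Of 5 muscle markers 1 was lower at ZT14 and 2 at ZT2, and of 8 erythroid and lymphocyte markers 2 were lower at ZT14 and 5 at ZT2. The part of these cells in the Hox differences was not tested. Over the same arrays the summed signal of the measured Hoxa genes was 2274% with vancomycin and 2469% with saline at ZT14, and 2349% with vancomycin and 2299% with saline at ZT2. The Hoxc sum was 379% with vancomycin and 382% with saline at ZT14, and 497% with vancomycin and 370% with saline at ZT2. The Hoxb sum was 1737% with vancomycin and 1286% with saline at ZT14, and 1635% with vancomycin and 1452% with saline at ZT2. For Hoxd it was 1810.1% with vancomycin and 1779% with saline at ZT14, and 1788% with vancomycin and 1512% with saline at ZT2. The Hoxb and Hoxd sums were thus higher with vancomycin at both times, and the Hoxa and Hoxc sums only at ZT2. Each sum, here and for the lists above, adds signals of different probes, so its brightest genes weigh most. In vancomycin ZT14, Hoxd8 alone had 1568%, Hoxa7 1319% and Hoxb7 861%.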

How the data were processed

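Total kidney RNA was hybridised to single-colour Agilent mouse arrays, 1 per group. Per the file headers, the deposited processed signal is an intensity after background subtraction, read by Feature Extraction 10.7.1.1, whereas the submitters' processing notes name 9.5.1.1. No normalization between arrays had been applied to it. A series-wide table of intensity values by probe, deposited by the authors, served as an alternative.

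Gene names and mm9 probe positions are those of the array files. Replicate spots were averaged after outlier spots were left out, log2 signals were centred on the 75th percentile of each array, and each gene was represented by its brightest probe. The detection filter asked for 50% or more of the spots of a probe to be marked well above background on 1 array or more, which 19099 of 56605 probes did not meet. Where only 1 of 2 arrays was above background, a dim value under the lowest signal well above background was set to that signal, and the difference is a bound. A dim value above that signal was kept, and the difference is then no bound.

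Python 3.11.15 (pandas 2.3.3, numpy 2.4.6, matplotlib 3.10.9) and limma 3.58.1 in R 4.3.3 were used. The limma fit had treatment and injection time as terms over all 24638 genes, with Benjamini-Hochberg adjustment. It was also run on simulated data with independent noise and the same treatment effect at both times. That run cannot show how the fit behaves with the spread between mice. Single-time differences have a 2-fold size rule and no test. Shares of all genes past 2-fold are over genes above background on at least 1 of the arrays compared. The number of arrays, 1 per group, limits the precision. Alternatives changed centring, background correction, normalization, pseudocount, filter, probe choice and fit.

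Signals on every array are given for each member above background on all 4 arrays, and for any other member whose difference passed 2-fold, with Hoxd11 added to complete its paralog group. Of other lists the genes past 2-fold are named, at most 3, and defining kidney and adrenal genes. For 1 member, counted in the totals, no values are reported here or drawn. The members, lists and tests were chosen with earlier results of these data known.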

Additional observations from a re-analysis of the deposited data

Results flagged for a closer look

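The vancomycin difference of Hoxd4 was 1.24 log2 units lower at ZT14 than at ZT2 (-1.24), since it was -0.63 at ZT14 and 0.61 at ZT2. For Hoxc11 the difference at ZT14 was lower than that at ZT2 by at least 1.83 (-1.83), from -1.36 at ZT14 and a bound of 0.47 at ZT2, where the saline array was not well above background. Each time had 1 array per treatment, so the difference between times was not tested for either gene.

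For vancomycin minus saline, probes other than the brightest gave 4 differences past 2-fold in Hox genes that the brightest probe did not. At ZT14 the dimmer probe of Hoxb2, on the strand opposite to the gene, was higher with vancomycin by 1.88. The dimmer probe of Hoxb9 was higher by 1.29 and that of Hoxb8 lower (-1.20) at ZT14, the last from signals of 2.65% with vancomycin and 6.08% with saline. A dimmer probe of Hoxa3 was higher with vancomycin at ZT2, by 1.28 (error-model SE 0.44). Its signals were 4.77% with vancomycin and 1.96% with saline, the saline one not well above background.

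For ZT14 minus ZT2, dimmer probes passed 2-fold in both directions. With vancomycin a dimmer probe of Hoxb3 was higher at ZT14 by 1.31, where the brightest gave 0.64, and that of Hoxc6 was lower (-1.02), where the brightest gave -0.35. With saline the dimmer probe of Hoxb2 was lower (-1.41), where the brightest gave -0.31. The dimmer probes of Hoxa3 with saline disagreed with each other, at -1.12 and 1.18, where the brightest gave -0.14. The value of 1.18 rests on a ZT2 signal not well above background (error-model SE 0.43). Hoxb8 (1.58) and Hoxb9 (-1.12) were past 2-fold with saline in their dimmer probes, as in their brightest (1.00 and -1.43). For the dimmer Hoxb8 probe the ZT2 signal was not well above background (error-model SE 0.40).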

How the results depend on the processing

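The number of Hox genes detected on all 4 arrays was 29, and 31, 29 and 27 by the positive-and-significant flag, by any probe and by all probes of a gene. The Hox genes past 2-fold at ZT14 numbered 2, but 0 with normexp background correction, 0 with a pseudocount of 16, 1 with only probes above background on all 4 arrays (which leaves out Hoxc11) and 3 with the mean over probes. At ZT2 the number was 0 under every alternative. The median Hox difference stayed above 0, from 0.07 to 0.10 at ZT14 and from 0.16 to 0.23 at ZT2. The medians over all genes moved too, to 0.03 at ZT14 and 0.05 at ZT2 with normexp. With no filter on dim probes they were 0.09 at ZT14 and 0.11 at ZT2. Under that setting the Hox median was below that of all genes at ZT14 (0.07) and above it at ZT2 (0.20). For vancomycin limma called 0 Hox genes under every alternative, with smallest adjusted p from 0.36 to 1.00. For ZT14 against ZT2 limma called 1 of 31 with normexp (Hoxb9, adjusted p 0.048), against 2945 of 24638 genes (11.95%). Under a robust prior with an intensity trend limma called 1 of 31 (Hoxb8, adjusted p 0.044), against 3396 genes (13.78%). Over the other lists, 1 gene and not 7 was past 2-fold in the same direction at both times with normexp. The cause of these changes was not tested. The Hox median of ZT14 minus ZT2 with saline, 0.08, changed sign: -0.026 with centring on the median, -0.040 with normexp and -0.0084 with the mean over probes, and with vancomycin it ranged from -0.34 to -0.12. Among the single genes recomputed, 0 changed direction. No paired analysis was possible because the labels give no replicate numbers beyond the injection time, which is also the slide and is already a term of the fit. Without that term limma called 0 Hox genes. No array could be left out, with 1 per group. Weak signal over background limits Hoxc11, Hoxd11, Hoxc5 and Hoxa2 most.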

Other observations

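Several RNAs without protein product lie between Hox genes and had probes of their own. Hottip, beside Hoxa13, was well above background on all 4 arrays although Hoxa13 was on none, with signals of 4.59% with vancomycin and 5.73% with saline at ZT14, and 7.82% with vancomycin and 5.10% with saline at ZT2. The entry named HOTAIR, in the Hoxc cluster, was on no array. Hoxa11os, antisense to Hoxa11, was on all 4 arrays with both its probes and differed by 0.18 and -0.23 at ZT14, where Hoxa11 differed by -1.13. The probes of Hoxb5os disagreed between times: ZT14 minus ZT2 was 1.17 with vancomycin and 1.11 with saline for one, and -0.23 with vancomycin and -0.76 with saline for the other. Hoxaas2 and both probes of Hoxaas3 were on all 4 arrays and were higher with vancomycin at both times, by 0.12 to 0.60, without a test. The Hoxaas3 probes lie on opposite strands, 1 of them on the minus strand, which is that of the Hoxa genes. The probe of Hoxd3os1 that was on all 4 arrays differed by -0.19 at ZT14 and 0.25 at ZT2, and its other probe was on none.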
